A study of Mus musculus with 11 samples.

Results

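The genes described here encode the mitochondrial ribosomal proteins, taken as every gene whose symbol in the platform annotation begins with Mrpl (large subunit) or Mrps (small subunit). They numbered 76 of 19057 genes with a probe, 48 named for the large and 28 for the small subunit, and each was represented by the probe with the highest mean. RNA came from mammary tumours taken at 12 weeks of age from females of both genotypes, and each tumour was put on its own Illumina Mouse WG-6 v2.0 array. There were 6 PyMT tumours and 5 PyMT/SIRT6 tumours. All mice carried the PyMT transgene, the polyoma virus middle T oncogene, and formed mammary tumours without further treatment. The PyMT/SIRT6 mice also carried the Sirt6BAC allele, which overexpresses functional SIRT6, a nuclear NAD-dependent deacylase of chromatin. The PyMT mice were wild-type for it, per the series' design text, and the promoter of the PyMT transgene is not given in them. Tumours are numbered in deposit order within a genotype, which pairs nothing. A mouse may have given more than 1 tumour, since the labels leave this unsaid, and p-values therefore refer only to the spread between samples.

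Mitochondria keep a small genome of their own, whose messenger RNAs encode core subunits of the respiratory chain and of ATP synthase. They are translated inside the organelle by a dedicated ribosome. Its ribosomal RNAs come from the mitochondrial genome, whereas all of its proteins are encoded in the nucleus, made in the cytosol and imported. The large subunit forms the peptide bond and holds the exit tunnel, and the small subunit binds the messenger RNA and reads the codons. Nuclear respiratory factors, GABPA and YY1 are known regulators of nuclear genes for mitochondrial proteins, and PyMT tumours are a widely used model of luminal breast cancer.

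Sirt6 itself, the check of the labels, ranged from 7.64 to 7.88 on the log2 scale of intensity in PyMT tumours and from 8.19 to 8.64 in PyMT/SIRT6 tumours, a difference of 0.61 ± 0.089 (SE; limma adjusted p = 0.0574). Skeletal muscle markers varied most among the marker lists examined, with a mean over 21 genes of 7.47 to 11.50 in PyMT tumours and 7.50 to 11.39 in PyMT/SIRT6 tumours. That mean was above 9 in PyMT replicate 5 and in PyMT/SIRT6 replicates 1, 4 and 5. Luminal epithelial markers, a mean over 8 genes, lay between 10.29 and 10.93 in PyMT tumours and between 10.40 and 10.75 in PyMT/SIRT6 tumours.

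Of the 76 genes, 72 passed the filter on dim features, 45 of the large and 27 of the small subunit. The other 4, Mrpl19, Mrpl32, Mrpl39 and Mrps14, had array values from 7.04 up to the filter limit of 7.31, and were not tested. No row of the table carried the symbol Mrps36. The genes were spread over 17 chromosomes, with at most 11 on any of them.

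Mitochondrial ribosomal protein genes of both subunits varied together from tumour to tumour. Transcripts for most of them were low in the same 3 tumours, PyMT replicates 2 and 5 and PyMT/SIRT6 replicate 2. The mean over the 45 large-subunit genes was 10.38, 9.99, 10.40, 10.23, 9.96 and 10.37 on the log2 scale in PyMT replicates 1 to 6. It was 10.34, 9.91, 10.41, 10.39 and 10.38 in PyMT/SIRT6 replicates 1 to 5. Thus 2 of 6 PyMT tumours and 1 of 5 PyMT/SIRT6 tumours lay apart at the low end, and the highest tumours of both genotypes were at almost the same level. The mean over the 27 small-subunit genes was 10.25, 9.93, 10.28, 10.13, 9.87 and 10.20 in PyMT replicates 1 to 6. In PyMT/SIRT6 replicates 1 to 5 it was 10.22, 9.85, 10.25, 10.23 and 10.19. The same tumours were low, and the ranges of the genotypes overlapped almost whole. From the lowest to the highest tumour the large-subunit mean differed 1.41-fold and the small-subunit mean 1.35-fold. In a bulk tumour, fewer cells of a type and less RNA per cell cannot be told apart.

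**Figure D1:**
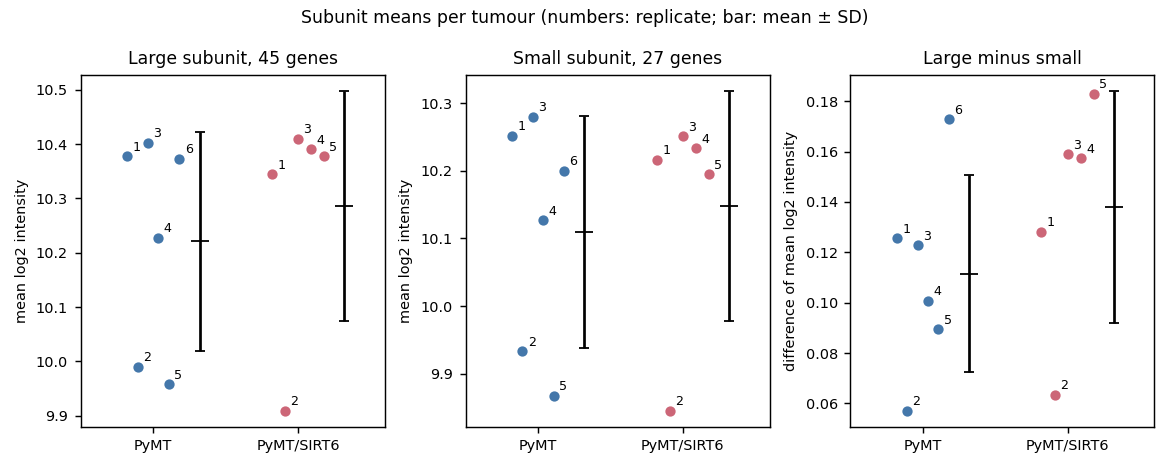
Mean log2 intensity of the 45 large-subunit genes (left) and the 27 small-subunit genes (middle) and their difference (right) in each tumour; points are tumours with their replicate number, and bars give the mean ± SD of 6 PyMT and 5 PyMT/SIRT6 tumours. PyMT replicates 2 and 5 and PyMT/SIRT6 replicate 2 lie at 9.99 or below in the large-subunit mean, and every other tumour lies at 10.23 or above.

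The low level was shared by most of the genes. PyMT replicate 2 was among the 3 lowest tumours for 53 of 72 genes, PyMT replicate 5 for 56 and PyMT/SIRT6 replicate 2 for 58. For 42 of 72 genes these were exactly the 3 lowest of 11 tumours. Relative to the mean of its genotype, 68 of 72 genes were below in PyMT replicate 2, 69 in PyMT replicate 5 and 67 in PyMT/SIRT6 replicate 2. Over all tested features the shares below the genotype mean in those tumours were 50.7%, 52.8% and 48.7%. The median deviation of the ribosomal genes there was -0.19, -0.26 and -0.38 on the log2 scale. The large-subunit mean also moved further than the small-subunit mean. Levels of different probes cannot be set against each other, so only the movement of this difference between tumours can be read. It was 0.057 in PyMT replicate 2, 0.090 in PyMT replicate 5 and 0.063 in PyMT/SIRT6 replicate 2, and 0.10 to 0.18 in the other 8 tumours.

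**Figure D2:**
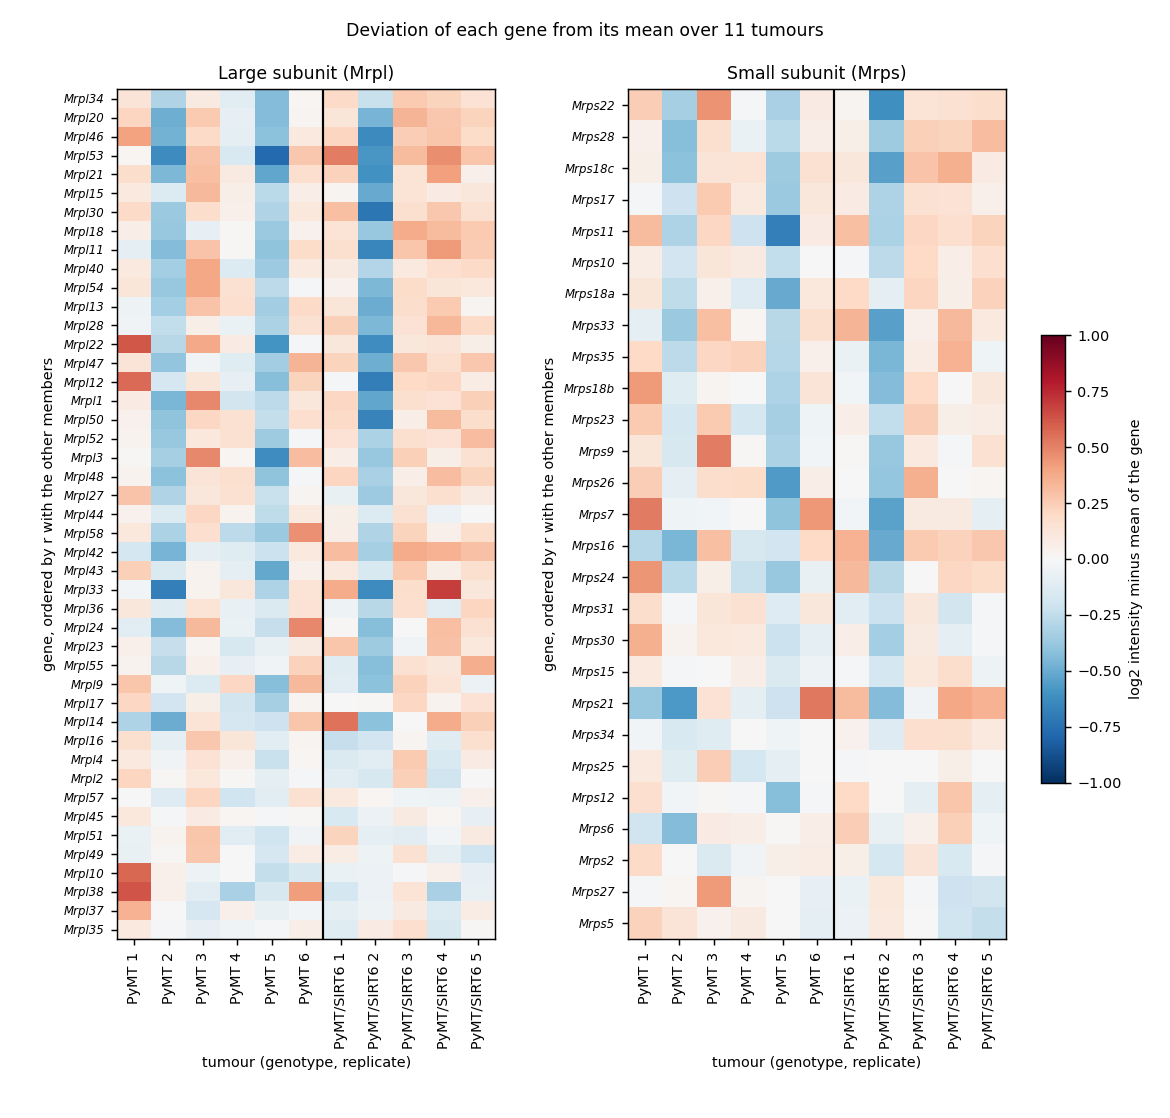
Log2 intensity of each tested gene minus its mean over 11 tumours, for the large subunit (left) and the small subunit (right), with genes ordered from the highest to the lowest correlation with the other ribosomal genes and tumours in columns. Columns PyMT 2, PyMT 5 and PyMT/SIRT6 2 are blue for most rows, and the lowest rows, among them Mrpl35 and Mrps5, do not share this.

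Co-variation was measured as the Pearson correlation of deviations from the genotype means over the 11 tumours, so a difference between genotypes does not enter it. The median over 2556 pairs of ribosomal genes was 0.64 (quartiles 0.37 and 0.80), and 91.7% of pairs were positive. It was 0.66 between large-subunit genes, 0.60 between small-subunit genes and 0.63 between a gene of each subunit. Pairs of all 14726 tested features had a median of 0 with quartiles of -0.29 and 0.29. The means of the subunits correlated at r = 0.99 (Spearman's rho 0.98; r = 0.98 without the 2 tumours farthest from the median). The points of each correlation share the same 11 arrays.

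The correlation over pairs was weaker without the 3 low tumours. They were left out for being lowest in these same genes, which narrows the range and by itself lowers correlations. Over the 8 other tumours, a choice made after seeing the data, the median over pairs of ribosomal genes was 0.15 (quartiles -0.20 and 0.45), with 60.8% of pairs positive. It was 0.17 within the large subunit, 0.095 within the small subunit and 0.14 between them, and all features had a median of 0. The subunit means still correlated at r = 0.89 (rho 0.88; 0.86 without the 2 farthest tumours) over these 8.

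**Figure D3:**
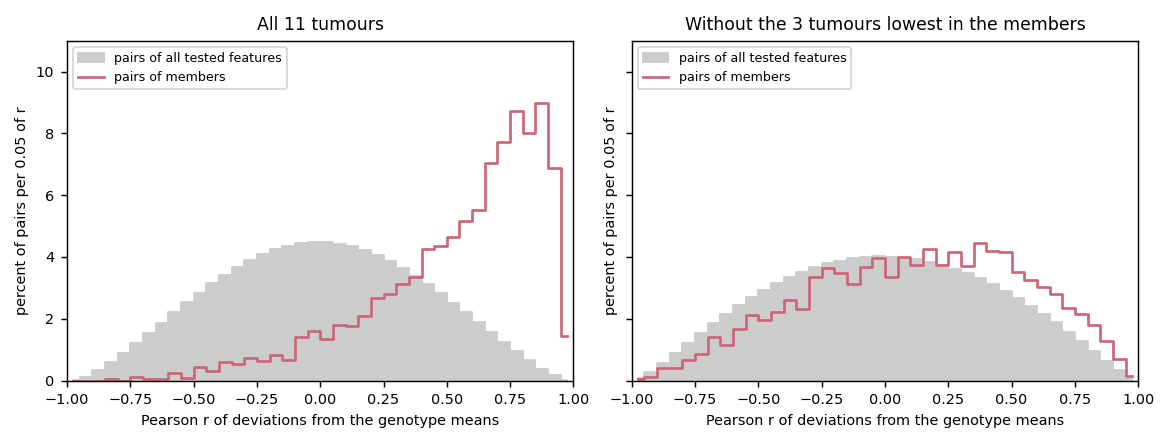
Distribution of Pearson's r over 2556 pairs of ribosomal genes (red line) and over pairs of all 14726 tested features (grey), in percent of pairs per 0.05 of r, for all 11 tumours (left) and for the 8 tumours other than the 3 lowest (right). The red line peaks near 0.9 on the left, and on the right it lies close to the grey with a median of 0.15.

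Each gene was also set against the mean of all the others. The median correlation was 0.84, with 0.85 for the large and 0.81 for the small subunit, and values ran from -0.34 to 0.98. A correlation above 0.8 was found for 44 of 72 genes (61.1%; 29 of the large and 15 of the small subunit). Among the 14654 other tested features 823 (5.62%) correlated above 0.8 with the ribosomal genes and 994 (6.78%) below -0.8. The 61 ribosomal genes with a mean above 9 had a median of 0.87, and the 11 dimmer ones a median of 0.44. Dim probes lie close to the array's background, which compresses their differences.

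Mrpl34, the counterpart of bacterial L34 in the large subunit, had the highest correlation with the others (r = 0.98). In PyMT tumours its lowest, median and highest log2 levels were 10.13, 10.51 and 10.69. In PyMT/SIRT6 replicates 1 to 5 the levels were 10.75, 10.34, 10.82, 10.78 and 10.70. The lowest tumours were PyMT replicates 5 and 2 and PyMT/SIRT6 replicate 2. The other PyMT/SIRT6 tumours were all above the highest PyMT tumour, the nearest at 10.70 against 10.69. The share of all tested features with such a pattern was not counted. Mrpl20, the counterpart of bacterial L20, which binds the ribosomal RNA of the large subunit, followed at r = 0.98. Its lowest, median and highest log2 levels were 8.67, 9.13 and 9.42 in PyMT tumours, and 9.28, 8.69, 9.50, 9.43 and 9.38 in PyMT/SIRT6 replicates 1 to 5. The low tumours of both genotypes had nearly equal levels. Mrpl46, a large-subunit protein without a bacterial counterpart, had r = 0.97. Its levels were 10.53, 11.00 and 11.40 (lowest, median and highest) in PyMT tumours and 11.22, 10.37, 11.25, 11.27 and 11.19 in PyMT/SIRT6 replicates 1 to 5. Here PyMT/SIRT6 replicate 2 was the lowest of all 11 tumours.

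In the small subunit Mrps22, a protein specific to the mitochondrial ribosome, had the highest correlation (r = 0.97). Its lowest, median and highest log2 levels were 9.50, 9.87 and 10.28 in PyMT tumours, and 9.86, 9.22, 9.97, 9.99 and 10.01 in PyMT/SIRT6 replicates 1 to 5. Mrps28 (r = 0.95) and Mrps18c (r = 0.94) came next. For Mrps28 the levels in PyMT tumours were 9.90, 10.32 and 10.49 (lowest, median and highest), and PyMT/SIRT6 replicates 1 to 5 had 10.39, 9.97, 10.56, 10.55 and 10.64. In all of these small-subunit genes PyMT replicates 2 and 5 and PyMT/SIRT6 replicate 2 were the 3 lowest tumours.

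The mammalian mitochondrial ribosome has 3 relatives of bacterial protein S18. Mrps18c and Mrps18b belong to the small subunit, and Mrps18a, in spite of its symbol, lies in the large subunit in known structures, as does Mrps30. All 3 relatives followed the other genes, with r = 0.88 for Mrps18a, 0.87 for Mrps18b and 0.94 for Mrps18c, and Mrps30 had r = 0.72. With Mrps18a and Mrps30 counted in the large subunit, the subunit means correlated at r = 0.99. Mrpl12, a protein of the ribosomal stalk that is also known to bind the mitochondrial RNA polymerase, had r = 0.91. Its lowest, median and highest log2 levels were 10.97, 11.41 and 11.96 in PyMT tumours, and 11.38, 10.70, 11.60, 11.60 and 11.47 in PyMT/SIRT6 replicates 1 to 5. PyMT/SIRT6 replicate 2 was again the lowest of all tumours.

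The amplitude differed between genes. From the lowest to the highest tumour a gene varied 1.19- to 2.60-fold, with a median of 1.71. The median SD within genotypes was 0.25 on the log2 scale, against 0.13 over all tested features. These sets were not matched for brightness, which bears on the SD, so the contrast cannot be read as a trait of the ribosomal genes. Of the 72 genes 61 had a mean above 9, whereas all tested features averaged 8.51 to 8.53 in each tumour. Mrpl53 had the largest SD (0.45), with 11.19, 11.91 and 12.26 (lowest, median and highest) in PyMT tumours and 12.49, 11.39, 12.29, 12.44 and 12.25 in PyMT/SIRT6 replicates 1 to 5. Mrpl33, the counterpart of bacterial L33, had the widest range (2.60-fold; SD 0.40), with 11.62, 12.31 and 12.44 in PyMT tumours and 12.68, 11.68, 12.48, 13.00 and 12.42 in PyMT/SIRT6 replicates 1 to 5. Both genes were low in PyMT replicate 2 and PyMT/SIRT6 replicate 2, Mrpl53 was lowest in PyMT replicate 5, and Mrpl33 was highest in PyMT/SIRT6 replicate 4. In the small subunit Mrps21 (SD 0.37, 2.15-fold) and Mrps11 (SD 0.32, 2.00-fold) had the largest SD, and Mrps22 (2.09-fold) and Mrps7 (2.07-fold) had a wider range than Mrps11.

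A few genes did not follow the rest. Mrps5, the counterpart of bacterial S5, which lies by the decoding centre, had r = -0.34 with the others. Its lowest, median and highest log2 levels were 8.11, 8.26 and 8.42 in PyMT tumours, and 8.14, 8.29, 8.19, 8.0 and 7.96 in PyMT/SIRT6 replicates 1 to 5. PyMT/SIRT6 replicate 2, low for most genes, was the highest of its genotype here. The other Mrps5 probe correlated with the main probe at 0.22 and with the other ribosomal genes at 0.28. Its mean of 7.43 was close to the filter limit of 7.31, which limits both values. Mrps27, a pentatricopeptide-repeat protein of the small subunit, had r = -0.080, and Mrpl35 had r = -0.10. Mrps5, Mrps27 (mean 7.95) and Mrpl35 were among the 11 dimmer genes, whose median correlation was 0.44. Mrpl35 had levels of 7.64, 7.71 and 7.82 in PyMT tumours and of 7.60, 7.80, 7.89, 7.56 and 7.73 in PyMT/SIRT6 replicates 1 to 5, close to the filter limit. Mrpl37 (r = 0.19) was bright, with levels of 10.11 to 10.63 in all 11 tumours, and its main probe did not follow the others. Its other probe, with a mean of 8.90, correlated at 0.58 with the other ribosomal genes and at 0.59 with the main probe. Mrpl38 (mean 11.35, r = 0.26) and Mrpl10 (mean 11.48, r = 0.31) were bright as well and followed weakly. The other Mrpl10 probe, with a mean of 10.83, correlated at 0.36 with the other ribosomal genes and at 0.89 with its main probe. For the other Mrpl38 probe, with a mean of 8.17, these values were 0.76 and 0.49.

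Probes that had not been used for these values were set beside them. Of 55 other probes in 32 of the 72 genes, 38 were above the filter limit. The mean of those 38 correlated with the mean of the ribosomal genes at r = 0.98 (rho 0.99; 0.97 without the 2 farthest tumours). Among the 19 other probes brighter than 9 the median correlation with the main probe of the same gene was 0.92 (0.66 to 0.99), and the median over pairs of them was 0.76. Probes of a gene share its RNA and the arrays.

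Promoters of genes that moved together are shown for Mrpl34 and Mrps22, at the top of each subunit, for Mrpl22 (r = 0.91), which holds a nuclear respiratory factor motif, for Mrpl42, the gene with the smallest p in the comparison of genotypes, and for Mrps5, which did not follow the others. The 210 bases up to the start of transcription are given, 5′ to 3′ on the strand of the gene, from RefSeq on GRCm38.p6. Capitals mark matches to any of 4 motifs, searched on both strands: GCATGCGC for NRF1, CCGGAAGT for the ETS family member GABPA, AAGATGGC for YY1, and for ZNF143 ACTACA, any 2 bases and then TCCCA.
Mrpl34 (chr8:71464716-71464925, plus strand): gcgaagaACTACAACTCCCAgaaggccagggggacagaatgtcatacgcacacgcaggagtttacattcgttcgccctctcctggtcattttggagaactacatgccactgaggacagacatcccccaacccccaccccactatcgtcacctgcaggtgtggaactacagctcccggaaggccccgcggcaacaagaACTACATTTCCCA
Mrps22 (chr9:98601680-98601889, minus strand): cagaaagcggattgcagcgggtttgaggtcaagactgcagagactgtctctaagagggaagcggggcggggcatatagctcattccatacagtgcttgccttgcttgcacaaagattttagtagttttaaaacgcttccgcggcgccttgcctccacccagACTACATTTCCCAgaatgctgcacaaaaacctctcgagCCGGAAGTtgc
Mrpl22 (chr11:58171454-58171663, plus strand): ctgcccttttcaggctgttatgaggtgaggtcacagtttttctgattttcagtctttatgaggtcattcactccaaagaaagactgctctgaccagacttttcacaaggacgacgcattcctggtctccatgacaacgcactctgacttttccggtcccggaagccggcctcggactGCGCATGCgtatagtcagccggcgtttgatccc
Mrpl42 (chr10:95501950-95502159, minus strand): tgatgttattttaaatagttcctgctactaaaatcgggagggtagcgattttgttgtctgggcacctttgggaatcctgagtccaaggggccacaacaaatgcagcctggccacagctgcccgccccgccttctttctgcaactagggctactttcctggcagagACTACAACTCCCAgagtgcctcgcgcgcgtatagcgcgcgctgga
Mrps5 (chr2:127587216-127587425, plus strand): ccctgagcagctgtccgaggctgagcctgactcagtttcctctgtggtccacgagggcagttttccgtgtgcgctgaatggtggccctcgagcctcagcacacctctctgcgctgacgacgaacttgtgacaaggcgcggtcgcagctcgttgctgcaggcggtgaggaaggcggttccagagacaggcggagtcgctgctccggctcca
Positions are those of a motif's first base relative to the start, where -1 is the last base shown. Mrpl34 holds the ZNF143 motif at -203 and again at -13. Mrps22 holds it at -49 and the ETS motif at -11. Mrpl22 holds the NRF1 motif at -33, read on the opposite strand as GCGCATGC, and Mrpl42 the ZNF143 motif at -45. The Mrps5 window holds none of the 4 strings. These windows were picked and do not stand for the rest, since 25 of 73 promoters of the ribosomal genes (34.2%) held any of the 4 motifs in 250 bases.

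RefSeq promoters were found for 67 of the 76 genes, 73 promoters in all, and the 250 bases before each start were searched. The NRF1 motif was in 8 of 73 (11.0%), those of Mrpl9, Mrpl10, Mrpl17, Mrpl22, Mrpl32, Mrpl33, Mrpl39 and Mrps18b, and in 2.26% of all 32851 mouse promoters of the same length. The ETS motif was in 10 (13.7%), those of Mrpl3, Mrpl18, Mrpl27, Mrpl43, Mrpl48, Mrpl51, Mrps18c, Mrps22, Mrps26 and Mrps27, and in 2.88% of all promoters. The YY1 motif was in 4 (5.48%), those of Mrpl32, Mrpl36, Mrps11 and Mrps12, and in 1.56% of all. The ZNF143 motif, added to the search after the sequences were read, and so not independent of them, was in 5 (6.85%), those of Mrpl24, Mrpl34, Mrpl42, Mrpl50 and Mrps22, and in 1.35% of all. At least 1 of the NRF1, ETS and YY1 motifs was in 21 of 73 promoters (28.8%), against 6.43% of all, 15.2% of 66 promoters of cytosolic ribosomal proteins and 8.57% of 35 of complex I subunits. The ETS motif was in 10.6% of the cytosolic ribosomal promoters and the NRF1 motif in 8.57% of the complex I promoters, while NRF1 was in 0 of the former and ETS in 0 of the latter. Mrps27, one of the dimmer genes, holds an ETS motif and did not follow the other genes, whereas Mrps22 (r = 0.97) holds it and followed. Mrpl20, among the closest followers, holds none of the 4. Whether the motifs bear on the co-variation was not tested. A match describes the letters in this window and shows no binding.

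The comparison of genotypes asks whether tumours with the Sirt6BAC allele differ in these genes. No mitochondrial ribosomal protein gene rose or fell at an adjusted p under 0.05 by limma, and 2 of 14726 tested features (0.0136%) did. Adjusted p-values of the 72 genes ran from 0.983 to 1.00. At an unadjusted p under 0.05 there was 1 gene higher in PyMT/SIRT6 tumours, Mrpl42, against 2.04% of all features, and 0 genes lower, against 2.39%. For 0 genes did all PyMT/SIRT6 tumours lie above all PyMT tumours (0.292% of features) or below them (0.197%). Mean levels were higher in PyMT/SIRT6 tumours, whatever the p, for 46 of 72 genes (30 of 45 large and 16 of 27 small), against 46.9% of all features.

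The large-subunit mean was 10.22 ± 0.20 (SD, n = 6) in PyMT tumours and 10.29 ± 0.21 (SD, n = 5) in PyMT/SIRT6 tumours, a difference of 0.065 within an SD of 0.21 between tumours of a genotype. The small-subunit mean was 10.11 ± 0.17 (SD, n = 6) and 10.15 ± 0.17 (SD, n = 5). The median change over large-subunit genes, PyMT/SIRT6 minus PyMT, was 0.032 on the log2 scale (quartiles -0.025 and 0.16), and over small-subunit genes 0.045 (quartiles -0.053 and 0.14). Over all tested features it was -0.0053 (quartiles -0.060 and 0.044). Changes of single genes ran from -0.18 to 0.36. The medians moved with the choice of tumours. Without the 4 tumours high in skeletal muscle markers they were -0.12 for the large and -0.074 for the small subunit, with PyMT/SIRT6 replicates 2 and 3 alone left in that genotype (large-subunit means of 9.91 and 10.41). Without PyMT/SIRT6 replicate 2, the lowest tumour, they were 0.16 and 0.12, without PyMT replicate 2 -0.0071 and 0.014, and without PyMT replicate 5 -0.0046 and -0.0011. The muscle mean correlated with the ribosomal mean at r = -0.16 over 11 tumours. For markers of other cells, list means also shifted between genotypes, with ranges that overlapped in each list that follows. Basal epithelial genes were lower in PyMT/SIRT6 tumours for 9 of 9 tested, 3 of them at an unadjusted p under 0.05, and the list mean ran from 8.91 to 9.46 without and from 8.80 to 9.07 with the Sirt6BAC allele. Macrophage genes were higher for 9 of 9 (1 at that p; 9.26 to 9.79 and 9.44 to 9.90), T and NK cell genes for 5 of 5 (3; 7.33 to 7.58 and 7.47 to 7.93) and milk genes for 4 of 6 (3; 9.72 to 11.87 and 10.69 to 11.96). Over all tested features 2.04% were higher and 2.39% lower at that p by limma, and 46.9% had a higher mean in PyMT/SIRT6 tumours. Genes of a list were not shown to vary independently, so the counts cannot be read as separate results. The T and NK cell genes had means of 7.35 to 7.78, close to the filter limit of 7.31. In each of these lists 0 genes passed the adjusted test by limma. The part of these cells and of muscle in the ribosomal values was not tested further.

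**Figure D4:**
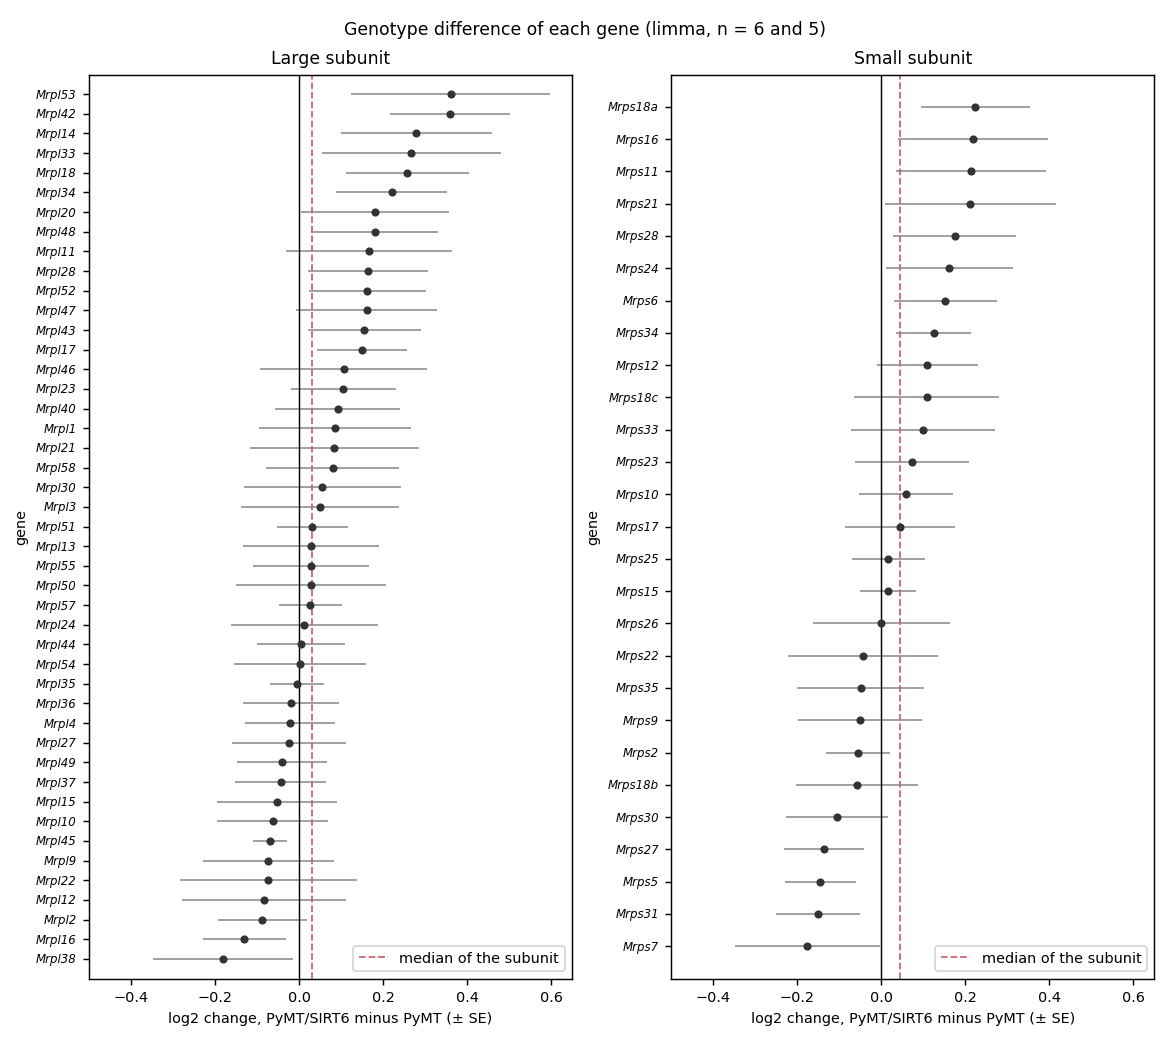
Log2 change, PyMT/SIRT6 minus PyMT, with limma's standard error for each of the 45 large-subunit genes (left) and 27 small-subunit genes (right), from 6 and 5 tumours; the dashed line is the median of the subunit. Changes run from -0.18 to 0.36 around medians of 0.032 and 0.045, and for most genes the error bar crosses 0.

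Mrpl42, a large-subunit protein without a bacterial counterpart, had the smallest p of the 72 genes. Its lowest, median and highest log2 levels were 10.66, 10.98 and 11.22 in PyMT tumours, and 11.43, 10.80, 11.50, 11.48 and 11.42 in PyMT/SIRT6 replicates 1 to 5. Of the PyMT/SIRT6 tumours, 4 lay above every PyMT tumour and replicate 2 lay below all PyMT tumours but the lowest. The gene was named for its small p, and the share of all tested features with such a pattern was not counted. The means were 10.97 ± 0.18 (SD, n = 6) and 11.33 ± 0.30 (SD, n = 5), a change of 0.36 ± 0.14 (SE) or 1.28-fold. limma gave an unadjusted p of 0.0262 and an adjusted p of 0.983. Without PyMT/SIRT6 replicate 2 the change was 0.49 ± 0.11, with an adjusted p of 0.437.

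Without that tumour 10 of 72 genes were higher at an unadjusted p under 0.05, against 3.99% of all features, and 1 was lower, against 4.34%. That tumour, lowest in these same genes, was singled out after its values were seen, and PyMT replicates 2 and 5, also low, stayed in. The genes co-vary (median r of 0.64 over pairs), so the 10 are not independent and the shares cannot be read as an excess. The 10 higher genes were Mrpl11, Mrpl14, Mrpl18, Mrpl28, Mrpl33, Mrpl34, Mrpl42, Mrpl53, Mrps16 and Mrps28, and the lower gene was Mrps5. The lowest adjusted p among the 72 genes was then 0.437. The number was 0 when PyMT replicate 2 was left out, and also when PyMT/SIRT6 replicate 1, 3, 4 or 5 was. With arrays weighted by their fit, 7 genes were higher (4.18% of all features) and 1 was lower (5.17%).

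Other large-subunit genes with the smallest p in the upward direction were Mrpl18, Mrpl34, Mrpl14 and Mrpl53. Mrpl18, whose protein is known to bind 5S ribosomal RNA, had levels of 8.99, 9.33 and 9.43 (lowest, median and highest) in PyMT tumours and 9.50, 8.99, 9.73, 9.68 and 9.63 in PyMT/SIRT6 replicates 1 to 5. All PyMT/SIRT6 tumours but replicate 2 were above the highest PyMT tumour, again a pattern whose share over all tested features was not counted. The change was 0.26 ± 0.15 (SE; limma adjusted p = 0.983). Mrpl34 differed by 0.22 ± 0.13, Mrpl14 by 0.28 ± 0.18 and Mrpl53 by 0.36 ± 0.24, with the same adjusted p. In the downward direction Mrpl45 differed by -0.069 ± 0.040, Mrpl16 by -0.13 ± 0.10, Mrpl38 by -0.18 ± 0.17, Mrpl2 by -0.087 ± 0.11 and Mrpl10 by -0.063 ± 0.13. Mrpl2 is the counterpart of bacterial L2, which lies next to the peptidyl transferase centre. Mrpl45 was dim (mean 7.34 and 7.27), where fold changes understate differences in RNA.

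Mrps18a and Mrps30 are counted here with the small subunit, by their symbols. In the small subunit the genes with the smallest p in the upward direction were Mrps18a, Mrps34, Mrps6, Mrps16 and Mrps28. Mrps18a had levels of 9.92, 10.38 and 10.54 (lowest, median and highest) in PyMT tumours and 10.62, 10.33, 10.64, 10.48 and 10.65 in PyMT/SIRT6 replicates 1 to 5, so the groups overlapped in replicates 2 and 4, and the change was 0.22 ± 0.13 (SE; limma adjusted p = 0.983). Mrps34, needed for the stability of the small subunit's RNA, differed by 0.12 ± 0.090, Mrps6 by 0.15 ± 0.12, Mrps16 by 0.22 ± 0.18 and Mrps28 by 0.17 ± 0.15. In the downward direction Mrps5 differed by -0.15 ± 0.085, Mrps31 by -0.15 ± 0.10, Mrps27 by -0.14 ± 0.10, Mrps7 by -0.18 ± 0.17 and Mrps30 by -0.11 ± 0.12. Mrps7 is the counterpart of bacterial S7, which organises the head of the small subunit. None of these passed the test.

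Probes of a gene did not always have a change of the same sign. Of 25 genes with several probes above the filter limit, 11 had probes of both signs: Mrpl3, Mrpl15, Mrpl37, Mrpl38, Mrpl49, Mrpl51, Mrps5, Mrps15, Mrps18b, Mrps23 and Mrps25. Fitted with every probe as a feature of its own, Mrpl38 differed by -0.18 ± 0.18 on its main probe and by 0.10 ± 0.14 on the other, and Mrps5 by -0.15 ± 0.077 and 0.021 ± 0.042. The change printed for these genes therefore holds for the brightest probe. Mrpl49 was the gene among them with a probe at an unadjusted p under 0.05, 1 of its 4. Its brightest probe differed by -0.040 ± 0.14 and the others by 0.13 ± 0.10, -0.0088 ± 0.080 and -0.17 ± 0.045 (limma unadjusted p = 0.00176). That last probe was dim, with means of 7.70 and 7.53. The genes tested included 2 on the chromosome of the native Sirt6 gene, Mrpl54 and Mrpl42. Mrpl54 has 14 tested genes between it and Sirt6 in RefSeq's order and differed by 0.0015 ± 0.16 between genotypes (limma adjusted p = 0.999). Mrpl42, with its change of 0.36 ± 0.14, has 60 tested genes in between. Whether position bears on either value was not tested.

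The other parts of mitochondrial translation were described from lists of genes by role. Of the 4 tested ribosomal proteins that carry another symbol, Chchd1 followed the Mrp genes (r = 0.94) and Ptcd3 did as well (r = 0.83), whereas Gadd45gip1 (r = -0.082) and the GTP-binding protein Dap3 (r = -0.22) did not. Dap3 differed by -0.18 ± 0.12 and Chchd1 by 0.19 ± 0.21 between genotypes. Of 15 translation factors 7 were higher and 8 lower in PyMT/SIRT6 tumours, with a median change of -0.0041 and none at an unadjusted p under 0.05. Lrpprc, which stabilises mitochondrial messenger RNA, differed by -0.11 ± 0.087, and Taco1, a translational activator of cytochrome oxidase subunit I, by -0.062 ± 0.063. Of 20 assembly factors 6 were higher and 14 lower, with a median of -0.016. Among them Nsun4, a methyltransferase of the small subunit's ribosomal RNA, differed by -0.15 ± 0.10 and Mpv17l2 by 0.16 ± 0.12. Of 14 mitochondrial tRNA synthetases 2 were higher and 12 lower, with a median of -0.043, and Iars2, the isoleucine enzyme, differed by -0.33 ± 0.18 and Pars2, the proline enzyme, by -0.063 ± 0.054. Of 6 genes of mitochondrial transcription 3 were higher and 3 lower. None of these genes had an unadjusted p under 0.05.

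The mean of the translation factors correlated with the mean of the 72 ribosomal genes at r = 0.96 (rho 0.80; 0.90 without the 2 farthest tumours), and at 0.42 over the 8 tumours other than the 3 lowest. The assembly factors correlated at 0.90 (rho 0.95; 0.87 without the 2 farthest) and at 0.86 over those 8. These values hold for the list means, and over all tumours single genes of both lists went both ways. Among the translation factors r ran from -0.46 for Lrpprc to 0.92 for Mtif3. Among the assembly factors it ran from -0.88 for Ybey to 0.91 for Gtpbp10. The transcription genes correlated at 0.87 (rho 0.72; 0.81) and at 0.37 over the 8. Within that list Tefm, an elongation factor (r = 0.92), and Tfam, which packages the mitochondrial genome (r = 0.87), were high and the polymerase itself, Polrmt, was opposed (r = -0.67). The tRNA synthetases as a list did not follow (r = 0.081), although Mars2 (r = 0.81) and Rars2 (r = 0.78) did and Vars2 (r = -0.70) was opposed. The list of regulators of mitochondrial biogenesis had r = -0.082. In it the nuclear receptor Esrra (r = 0.89) and Gabpb1, the partner of GABPA (r = 0.74), stood apart from Nrf1 (r = -0.064), Gabpa (r = -0.046), Myc (r = -0.24) and Ppargc1a (r = -0.57). Gabpa, Myc and Ppargc1a were dim, with means of 7.61, 7.53 and 7.41 close to the filter limit, which limits their correlations. Gabpb1 had a mean of 7.97, and Nrf1 (9.18) and Esrra (9.95) were brighter.

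Cytosolic ribosomal protein genes (50 tested) and complex I subunit genes (33 tested, all of them nuclear genes whose proteins are made in the cytosol and imported) also had lower means in PyMT replicate 2 and PyMT/SIRT6 replicate 2 than in any other tumour. Their means correlated with the mitochondrial ribosomal mean at r = 0.84 (rho 0.68) and r = 0.83 (rho 0.44), but at -0.13 and -0.17 over the 8 other tumours. Over 11 tumours single genes of each list went both ways. In the cytosolic list r ran from -0.84 for Rpl23 to 0.96 for Rpl30, and in complex I from -0.98 for Ndufa13 to 0.97 for Ndufb6. The median over pairs was 0.43 within the cytosolic list and 0.59 within complex I over 11 tumours, and 0.27 and 0.091 over the 8. Whether the lists differ in co-variation was not tested. Between genotypes the median change was 0.035 for cytosolic ribosomal proteins (28 higher, 22 lower) and 0.078 for complex I (28 higher, 5 lower). In each list 0 genes passed the adjusted test, and at an unadjusted p under 0.05 complex I had 1 gene higher.

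**Figure D5:**
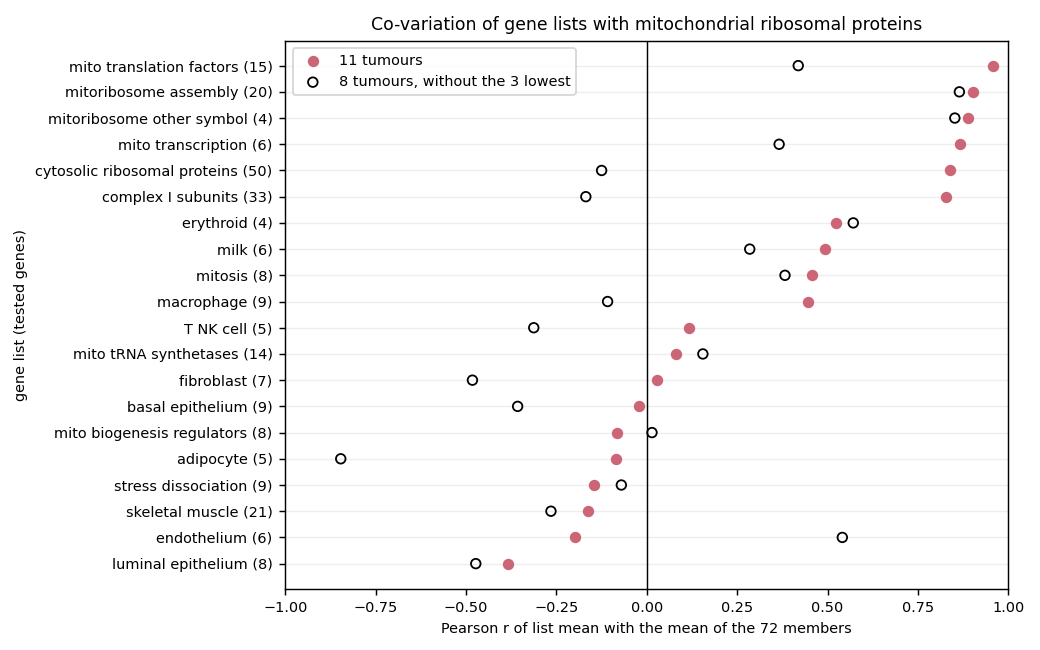
Pearson's r between the mean of each gene list and the mean of the 72 ribosomal genes, taken on deviations from the genotype means, over all 11 tumours (filled) and over the 8 tumours other than the 3 lowest (open); the number of tested genes is in brackets. Assembly factors and ribosomal proteins of other symbol stay above 0.8 in both, whereas cytosolic ribosomal proteins and complex I subunits go from above 0.8 to below 0.

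Markers of cell types and of sample state were set beside the ribosomal mean in the same way, over 11 tumours. The correlation was 0.52 for 4 erythroid genes, 0.49 for 6 milk genes, 0.46 for 8 mitosis genes and 0.45 for 9 macrophage genes. It was 0.12 for 5 T and NK cell genes, 0.028 for 7 fibroblast genes, -0.021 for 9 basal epithelial genes and -0.085 for 5 adipocyte genes. It was -0.15 for 9 genes of stress and dissociation, -0.16 for 21 skeletal muscle genes, -0.20 for 6 endothelial genes and -0.39 for 8 luminal epithelial genes. Only 1 gene of the B and plasma cell list was tested. Over the 8 tumours other than the 3 lowest the values farthest from 0 were -0.85 for the adipocyte list, 0.57 for erythroid, 0.54 for endothelial, -0.48 for fibroblast and -0.47 for luminal epithelial genes, and the other lists with several tested genes lay between -0.36 and 0.38. The part of each cell type in the co-variation was not tested.

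Outside the ribosome, the 5 genes whose deviations were most like the mean of the 72 ribosomal genes over 11 tumours were Osgep (r = 0.99), Tex30, Nup43, Ndufaf2 and Eef1e1 (each 0.98). Osgep is a subunit of the complex that modifies transfer RNAs beside the anticodon, Nup43 a nucleoporin, Ndufaf2 an assembly factor of complex I and Eef1e1 a member of the aminoacyl-tRNA synthetase complex. Over the 8 tumours other than the 3 lowest their correlations were 0.84, 0.89, 0.83, 0.67 and 0.94. Osgep had log2 levels of 9.99, 9.70, 10.01, 9.91, 9.61 and 9.94 in PyMT replicates 1 to 6 and 9.97, 9.68, 10.05, 10.01 and 9.98 in PyMT/SIRT6 replicates 1 to 5. Its 3 lowest tumours were those of the ribosomal genes. The 5 genes were picked for their r over the same 11 tumours, so neither this nor the values over 8 tumours is separate from that choice.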

How the data were processed

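The deposited table holds probe intensities on a linear scale, made by the authors from biotinylated cRNA on Illumina Mouse WG-6 v2.0 arrays, per the labels' protocols. Their normalization and background treatment, not given in the sources used here, left quantiles shared between the 11 arrays to within 1.08%, with medians of 157 to 158 and values from 117 to 40180, so no background subtraction was visible and no scaling was added. The number of arrays limits the precision.

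Of 45281 probes 34885 had a single symbol in the platform annotation, 18 several and 10378 none, and 34807 matched RefSeq (GRCm38.p6). The brightest probe was kept per gene, unnamed probes were kept too, and the lower 50% of 29453 features by mean (below an intensity of 159) were left out. The deposited intensities were put on the log2 scale. Genotypes were compared with limma 3.58.1 (lmFit, eBayes with trend) in R 4.3.3 over 14726 features, with Benjamini-Hochberg adjustment, after a test on simulated data. Named genes were, per subunit, the 5 smallest p in each direction, the 2 largest SD, the 3 highest and 2 lowest correlations, members of known role and genes whose probes disagree in sign with either at an unadjusted p under 0.05; others were named after their values were seen. The outlying tumours were looked for with Dixon's test. The members and lists were chosen with earlier results of these data known. Alternatives are given in the closing section.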

Additional observations from a re-analysis of the deposited data

Results flagged for a closer look

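Levels on the log2 scale of 32 named genes, of both subunit means and of their difference were examined for tumours standing apart from their genotype by Dixon's critical value, 70 groups in all. Such a gap was found in 13 groups, where chance gives about 1 in 20 for independent groups. These groups are not independent, because the genes co-vary and some were named for a large SD or a high correlation. In 11 of the 13 the tumour was PyMT/SIRT6 replicate 2, lowest of its genotype. Its large-subunit mean was 9.91, with the nearest tumour at 10.34, and its small-subunit mean 9.85, with the nearest at 10.19. PyMT replicates 2 and 5 were low as well, with large-subunit means of 9.99 and 9.96. Each lay next to the other, and a gap to the nearest tumour cannot mark tumours that are low together.

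Among large-subunit genes PyMT/SIRT6 replicate 2 had 10.70 for Mrpl12 (nearest 11.38), 8.69 for Mrpl20 (9.28), 10.34 for Mrpl34 (10.70), 10.80 for Mrpl42 (11.42), 10.37 for Mrpl46 (11.19) and 11.39 for Mrpl53 (12.25). Among small-subunit genes it had 9.38 for Mrps11 (nearest 9.86), 9.86 for Mrps16 (10.60) and 9.22 for Mrps22 (9.86). The remaining gaps were at the high end and in PyMT tumours. Mrpl10 stood at 12.05 in PyMT replicate 1 (nearest 11.53), and Mrps27 at 8.38 in PyMT replicate 3 (nearest 7.98).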

How the results depend on the processing

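At an adjusted p under 0.05 limma called 0 of 72 genes in every setting run, and the lowest adjusted p of a named gene was 0.437. The count of genes higher at an unadjusted p under 0.05 was 1. It became 7 with array weights, 0 without the 4 muscle-high arrays and 0 to 10 with each replicate left out. The count lower was 0, and became 1 with every probe tested separately, with array weights and with deposit order as a block, and 0 to 1 with each replicate left out. Of 765 recomputed changes of 32 named genes 735 kept their sign and 30 turned it, none of them called. Array weights gave 0.021 for Mrpl12 and 0.071 for Mrps22, and the skeletal muscle covariate 0.023 for Mrpl35 and 0.011 for Mrpl49. Without the arrays high in muscle markers the changes were -0.089 for Mrpl14, -0.049 for Mrpl20, -0.14 for Mrpl33, 0.12 for Mrpl35, -0.22 for Mrpl46, -0.094 for Mrpl53, -0.074 for Mrps11, -0.043 for Mrps16, -0.14 for Mrps18c, -0.16 for Mrps21 and -0.017 for Mrps28. With each replicate left out the change ran from -0.12 to 0.046 for Mrpl10, -0.18 to 0.079 for Mrpl12, -0.048 to 0.034 for Mrpl35, -0.082 to 0.022 for Mrpl37, -0.084 to 0.0096 for Mrpl49, -0.12 to 0.043 for Mrps18b and -0.11 to 0.10 for Mrps22. The cause was not tested.

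The median correlation over pairs of ribosomal genes was 0.55 to 0.67 with each replicate left out and 0.69 after a filter on the lower 75%. Without the 3 low tumours it was 0.15, and that of the subunit means 0.89, both chosen after seeing the data. No paired analysis was possible because the labels carry no replicate numbers; the deposit order block sets earlier against later arrays and pairs no tumours. Low signal limits the 11 dimmer genes and the 4 not tested.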

Other observations

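Genes moving opposite to the mitochondrial ribosome were looked up after the values were seen. The 5 most opposed over 11 tumours were Elmo1, App, Smtn, Atp2b1 and Fam102a, each with r = -0.98 against the mean of the 72 ribosomal genes. App, the amyloid precursor protein, had log2 levels of 12.28, 12.97, 12.25, 12.62, 13.30 and 12.45 in PyMT replicates 1 to 6 and 12.33, 13.17, 12.28, 12.31 and 12.41 in PyMT/SIRT6 replicates 1 to 5. It was highest in the 3 tumours where the ribosomal genes were lowest, and over the other 8 tumours it correlated at -0.93. For Elmo1, a regulator of Rac signalling, that value was -0.73, for Smtn, smoothelin, -0.79, for Atp2b1, a calcium pump of the plasma membrane, -0.86 and for Fam102a -0.83. The 5 genes were picked for their r over the same 11 tumours, so these values are not separate from that choice. None of the 5 differed between genotypes by limma, with adjusted p of 0.983 for App, Smtn and Atp2b1 and 0.999 for Elmo1 and Fam102a.

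The ribosomal mean followed the main axis of variation between tumours within genotypes. The first principal component of the deviations from the genotype means held 31.8% of the variance and correlated with the ribosomal mean at 0.85 in size (Spearman's rho 0.94). The second held 25.8%, with 0.45 (rho 0.15).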
